A study of Mus musculus with 24 samples.

Results

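Wild-type cells were compared at opposite ends of the 24-h cycle, with 4 libraries from hours 8 and 12 on the one side and 4 libraries from hours 20 and 24 on the other. Hours of the cycle are the hours after dexamethasone with 24 h subtracted as often as needed, so that hours 8 and 12 comprised the libraries at 12, 32, 36 and 56 h, and hours 20 and 24 those at 20, 24, 44 and 48 h. These 8 libraries were chosen by their time labels alone from the 24 libraries of the series, and the sides lie 12 h apart. Each side has 2 libraries from the first day (12 to 32 h) and 2 from the second (36 to 56 h), and both have a mean time of 34 h after dexamethasone. The question is which transcripts differ between these opposite phases in cells whose clock had been set by the hormone.

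The cells were mouse embryonic stem (ES) cells carrying a Per2::Luciferase knock-in, a reporter allele in which the Per2 gene is joined to luciferase. They were differentiated through embryoid bodies to day 28, treated with 100 nM dexamethasone, a synthetic glucocorticoid that sets cellular clocks to a common phase, and collected every 4 h. All libraries had this treatment, and none was untreated. Control cells (WT) were sequenced beside cells deficient in Rev-erba and Rev-erbb (KO) on the same knock-in background, an established clonal line in which an exon of each gene had been deleted. Each library was made from pooled RNA of 3 embryoid bodies, and no time point has a replicate, so the p values below measure the spread between libraries of neighbouring hours and of both days. The 8 libraries held markers of several cell types, with summed levels of 2225 to 2426 RPKM for 8 fibroblast markers, 640 to 921 RPKM for 10 macrophage markers and 0.394 to 7.73 RPKM for 10 pluripotency markers.

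In the mammalian clock, CLOCK and BMAL1 bind E-box elements and activate the Period and Cryptochrome genes, whose protein products enter the nucleus and inhibit that activation. A second loop runs through the REV-ERB receptors, which repress Bmal1 (Arntl) and Npas2, and the ROR receptors, which activate them through the same elements. A further arm consists of the PAR bZIP activators DBP, TEF and HLF and the repressor NFIL3, which share the D-box.

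The values are RPKM, the reads on the exons of a gene scaled to the exonic length and the library total. The 8 libraries had 6426254 to 10287969 fragments on exons, which was 44.7% to 45.4% of their totals, and differences were tested with limma on log2(RPKM + 0.1) over 14944 expressed genes. At a Benjamini-Hochberg adjusted p under 0.05, limma called 0 genes higher and 0 genes lower at hours 8-12, which is 0% of the genes tested, and the smallest adjusted p was 0.409. At an unadjusted p under 0.05, 407 genes had a higher mean (2.72% of all tested) and 207 a lower mean (1.39%), 4.11% together. All 4 libraries of hours 8-12 lay above all 4 of hours 20-24 in 246 genes (1.65%) and below them in 138 genes (0.923%). If the libraries were exchangeable, a share of 0.05 of genes would reach that unadjusted p. A share of 0.0286 would have sides that do not overlap, in either direction. With both directions together, the counts did not exceed these shares. The median log2 difference over all genes was 0.01, and 36 genes with a mean of at least 1 RPKM differed by more than 1 on the log2 scale. None of the genes below passed the adjusted threshold in this comparison, and they are described by their levels, their differences and the intervals of these.

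Clock genes were at the top of this ranking, with Cry1, Per2, Cry2 and Tef among the 12 genes of smallest p on the higher side. Of the 25 genes in 6 lists of clock components, 24 were expressed, Rorb being under the threshold. In 5 of the 24 (20.8%, against 1.65% of all genes) the 4 libraries of hours 8-12 lay above the other 4, and in 0 they lay below (0.923% of all genes). An unadjusted p under 0.05 was reached on the higher side by 6 of the 24 (2.72% of all genes) and on the lower side by 1 (1.39% of all genes). The median log2 difference of the 24 was 0.09. The 5 genes that did not overlap were Cry1, Per2, Cry2, Tef and Hlf, with log2 differences from 0.43 to 1.11, and they missed the adjusted threshold.

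Cry1, encoding a repressor of the CLOCK/BMAL1 activator, had the smallest p of all genes. Its level was 5.92, 4.86, 5.33 and 4.51 RPKM at 12, 32, 36 and 56 h and 2.76, 2.64, 3.54 and 3.07 RPKM at 20, 24, 44 and 48 h. Every library of hours 8-12 was above every library of hours 20-24, with means of 5.15 ± 0.61 and 3.0 ± 0.4 RPKM (SD, n = 4 each). The log2 difference was 0.76 ± 0.11 (SE; 95% interval 0.51 to 1.01; limma adjusted p = 0.409). The exact two-sided permutation test over these 8 libraries gave p = 0.0286, the smallest that 4 against 4 libraries can give, as it did for every gene below whose sides did not overlap. By hour of the cycle, Cry1 was highest at hour 12 (mean of 2 libraries 5.62 RPKM) and lowest at hour 24 (2.85 RPKM).

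Per2, whose protein partners the cryptochromes in repression, had the largest difference among the clock genes. It stood at 4.89, 4.27, 3.62 and 2.88 RPKM at 12, 32, 36 and 56 h, against 1.18, 1.91, 1.79 and 2.19 RPKM at 20, 24, 44 and 48 h. The groups did not overlap, and the nearest values were the 56 h and 48 h libraries, both late on the second day. The log2 difference was 1.11 ± 0.20 (SE; 95% interval 0.66 to 1.56; limma adjusted p = 0.751).

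Cry2, the second cryptochrome, differed less than Cry1. Its libraries of hours 8-12 held between 5.16 and 6.17 RPKM and those of hours 20-24 between 3.63 and 4.52 RPKM, a log2 difference of 0.43 ± 0.08 (SE; 95% interval 0.24 to 0.61). Per3 was measured at 0.648, 1.39, 0.754 and 0.997 RPKM at 12, 32, 36 and 56 h and at 0.489, 0.665, 0.531 and 0.711 RPKM at 20, 24, 44 and 48 h. Here the groups overlapped, because both hour 12 libraries lay near or under the hour 24 libraries, while the hour 8 libraries were above all of hours 20-24. The log2 difference of Per3 was 0.54 ± 0.22 (SE; 95% interval 0.06 to 1.03; exact permutation p = 0.0857). Per1, a Period gene that glucocorticoids also induce directly, had means of 18.1 ± 1.6 and 16.6 ± 1.4 RPKM (SD, n = 4 each). Its log2 difference was 0.12 with an interval from -0.05 to 0.30.

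**Figure D1:**
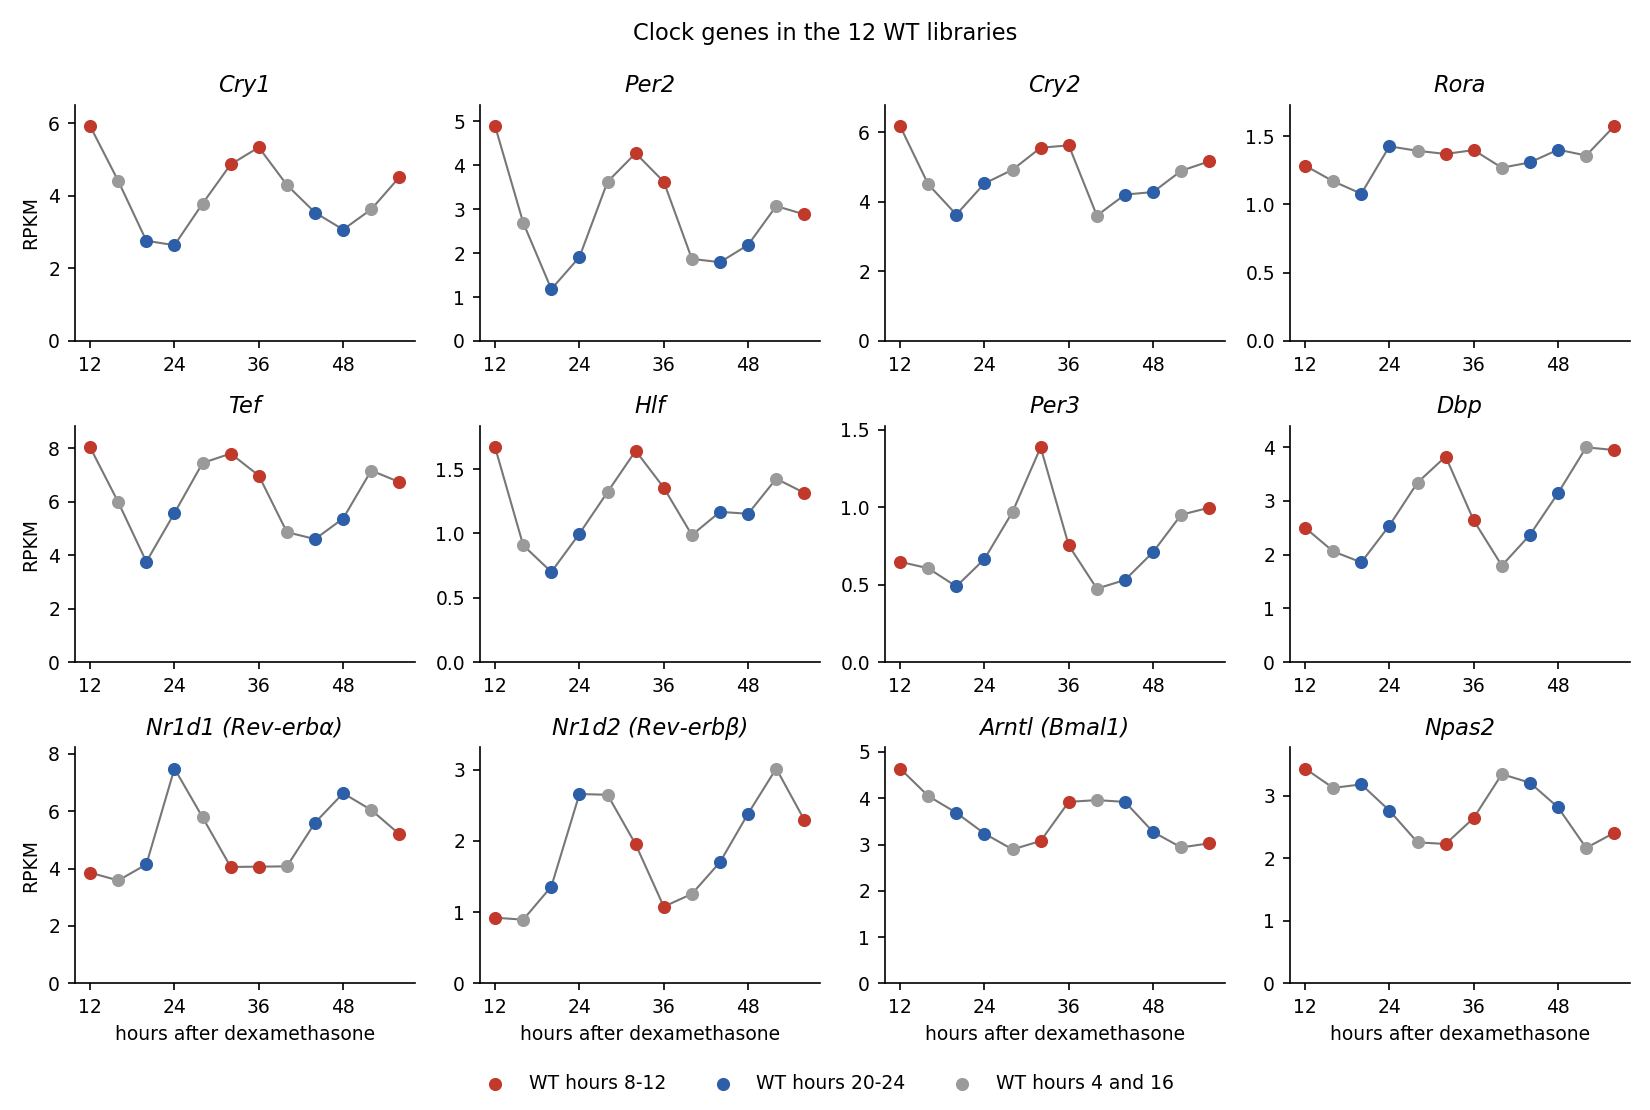
RPKM of 12 clock genes (vertical axes, from 0) against hours after dexamethasone in the 12 WT libraries; red points are hours 8-12, blue points hours 20-24 and grey points the 4 libraries at hours 4 and 16, joined in order of time. Cry1, Per2, Cry2, Tef and Hlf have every red point above every blue point, as at Cry1 with 4.51 RPKM for the lowest red and 3.54 RPKM for the highest blue, whereas in Nr1d1, Nr1d2, Rora, Dbp, Arntl and Npas2 the colours mix.

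The sequences just upstream of the genes that stood highest at hours 8-12 are shown because the known clock elements can be read in them. They are the 250 bases before the start of the gene from RefSeq (GRCm38.p6), written 5′ to 3′ on the strand of the gene, and 20 of the 24 expressed clock genes had an entry, with none for Per2, Bhlhe40, Csnk1d and Btrc. Capitals mark matches on either strand to known elements. The E-box searched was CACGTG. The E′-box was CACGTT, which shares its first 5 letters with the E-box and reads AACGTG on the other strand. The D-box was searched as TTANNTAA, in which N is any base, and the cyclic AMP response element was TGACGTCA. The Cry1 sequence lies at chr10:85185055-85185304 (minus strand), Cry2 at chr2:92434070-92434319 (minus strand), Tef at chr15:81802423-81802672 (plus strand) and Hlf at chr11:90390918-90391167 (minus strand). The last sequence belongs to Nr1d1, at chr11:98775378-98775627 (minus strand), shown as the clock gene with the most negative log2 difference.
Cry1: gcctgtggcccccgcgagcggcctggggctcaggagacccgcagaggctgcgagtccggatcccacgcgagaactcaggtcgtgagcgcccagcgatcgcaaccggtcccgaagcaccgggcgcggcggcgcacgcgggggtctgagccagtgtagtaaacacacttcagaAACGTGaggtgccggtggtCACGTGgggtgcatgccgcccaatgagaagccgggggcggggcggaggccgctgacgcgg
Cry2: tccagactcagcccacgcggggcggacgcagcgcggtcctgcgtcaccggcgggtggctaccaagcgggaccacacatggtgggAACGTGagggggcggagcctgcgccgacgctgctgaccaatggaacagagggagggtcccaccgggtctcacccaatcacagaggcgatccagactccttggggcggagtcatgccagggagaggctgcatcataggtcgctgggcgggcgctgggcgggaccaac
Tef: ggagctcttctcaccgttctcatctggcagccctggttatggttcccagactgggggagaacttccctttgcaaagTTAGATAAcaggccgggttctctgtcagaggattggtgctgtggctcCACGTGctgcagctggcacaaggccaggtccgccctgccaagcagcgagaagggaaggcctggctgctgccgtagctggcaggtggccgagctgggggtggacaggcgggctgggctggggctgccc
Hlf: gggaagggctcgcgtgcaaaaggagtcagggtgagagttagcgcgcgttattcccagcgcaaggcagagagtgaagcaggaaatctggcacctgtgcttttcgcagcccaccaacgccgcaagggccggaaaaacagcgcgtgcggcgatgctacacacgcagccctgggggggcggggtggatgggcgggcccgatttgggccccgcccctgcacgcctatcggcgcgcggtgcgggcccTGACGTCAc
Nr1d1: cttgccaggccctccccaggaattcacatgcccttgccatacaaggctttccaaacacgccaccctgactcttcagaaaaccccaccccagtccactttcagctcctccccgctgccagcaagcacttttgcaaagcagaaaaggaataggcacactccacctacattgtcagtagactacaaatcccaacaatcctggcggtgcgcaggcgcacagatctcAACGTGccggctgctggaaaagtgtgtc

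Cry1 had an E-box ending 55 bases and an E′-box ending 74 bases before the start. Tef had an E-box ending 122 bases and a match to the D-box pattern, TTAGATAA, ending 167 bases before the start. Cry2 and Nr1d1 had an E′-box, and Hlf a cyclic AMP response element directly at its start. The E-box was in 4 of the 20 clock sequences (Bhlhe41, Ciart, Cry1 and Tef), against 6.02% of 32817 RefSeq sequences of the same length. The E′-box was in 3 of 20 (Cry1, Cry2 and Nr1d1) against 3.85%. The D-box pattern was in 2 of 20 (Per3 with TTATGTAA and Tef with TTAGATAA) against 5.43%. Of the bases bound by ROR and REV-ERB receptors, TAGGTCA was in 1 of 20 (Nfil3) against 2.24% and TGGGTCA in 0 of 20 against 3.25%. The CCAAT box was in 12 of 20 against 33.8%. A match is a description of the letters, and these windows hold no distal elements. Ciart had 3 E-boxes and Bhlhe41 had 1, and both had log2 differences near 0 (0.02 and 0.11).

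Among the nuclear receptors of the second loop, Rora, which encodes the activator RORα, differed by 0.11 with an interval from -0.15 to 0.36.

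Nr1d1, which encodes REV-ERBα, had a lower mean at hours 8-12. It was measured at 3.86, 4.05, 4.06 and 5.19 RPKM at 12, 32, 36 and 56 h and at 4.14, 7.48, 5.59 and 6.62 RPKM at 20, 24, 44 and 48 h. The groups overlapped, the 56 h library being above the 20 h library. The log2 difference was -0.44 ± 0.17 (SE; 95% interval -0.82 to -0.06; exact permutation p = 0.0571). Nr1d2, which encodes REV-ERBβ, differed by -0.40 with an interval from -1.07 to 0.27. The hours within each side differed more than the side means of 1.56 and 2.03 RPKM. Mean Nr1d2 was 2.12 RPKM at hour 8 and 1.0 RPKM at hour 12, and 1.53 RPKM at hour 20 and 2.52 RPKM at hour 24. The last exons of Nr1d1 overlap the Thra gene on the opposite strand, and the use of strand in counting is not given in the sources used here, so reads from that overlap cannot be assigned to either gene.

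The PAR bZIP factors were on the higher side, to differing degrees. Tef was 8.04, 7.81, 6.98 and 6.74 RPKM at 12, 32, 36 and 56 h and 3.76, 5.58, 4.61 and 5.38 RPKM at 20, 24, 44 and 48 h, a log2 difference of 0.62 ± 0.12 (SE; 95% interval 0.35 to 0.89). Hlf was 1.67, 1.64, 1.36 and 1.32 RPKM against 0.701, 0.998, 1.17 and 1.15 RPKM in the same order, a log2 difference of 0.55 ± 0.16 (SE; 95% interval 0.18 to 0.91). In both genes the sides were apart, more widely on the first day than on the second. Dbp differed by 0.36 ± 0.19 (SE; exact permutation p = 0.171), with means of 3.89 RPKM at hour 8, 2.57 RPKM at hour 12, 2.11 RPKM at hour 20 and 2.84 RPKM at hour 24, so that hours 12 and 24 were close. Nfil3, the repressor acting on the same element, had a log2 difference of 0.05 with an interval from -0.10 to 0.19.

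The activators of the first loop had nearly equal means on both sides. Arntl, encoding BMAL1, was 4.64, 3.08, 3.92 and 3.03 RPKM at 12, 32, 36 and 56 h and 3.69, 3.24, 3.92 and 3.27 RPKM at 20, 24, 44 and 48 h, a log2 difference of 0.04 (95% interval -0.27 to 0.34). The equal means joined unequal hours, with 3.05 RPKM at hour 8, 4.28 RPKM at hour 12, 3.80 RPKM at hour 20 and 3.25 RPKM at hour 24. Npas2, a partner of BMAL1 related to CLOCK, was likewise lowest at hour 8 among the 4 hours compared (2.32, 3.04, 3.19 and 2.79 RPKM at hours 8, 12, 20 and 24), with a log2 difference of -0.17 and an interval from -0.46 to 0.12. Clock differed by 0.03 (interval -0.17 to 0.22) and Arntl2, a BMAL1 paralogue at under 0.5 RPKM in every one of these libraries, by -0.07.

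The E-box repressors Bhlhe40 (Dec1), Bhlhe41 (Dec2) and Ciart had log2 differences of 0.07, 0.11 and 0.02. The kinases and ubiquitin ligase components that set the life span of PER and CRY proteins numbered 5. Of these, 0 had an unadjusted p under 0.05 (4.11% of all genes). Their differences ran from -0.01 for Btrc, the ligase subunit that recognises phosphorylated PER proteins, to 0.11 for Csnk1e, a casein kinase 1 that phosphorylates PER proteins. The widest of the 5 intervals, that of Btrc, reached from -0.23 to 0.21.

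**Figure D2:**
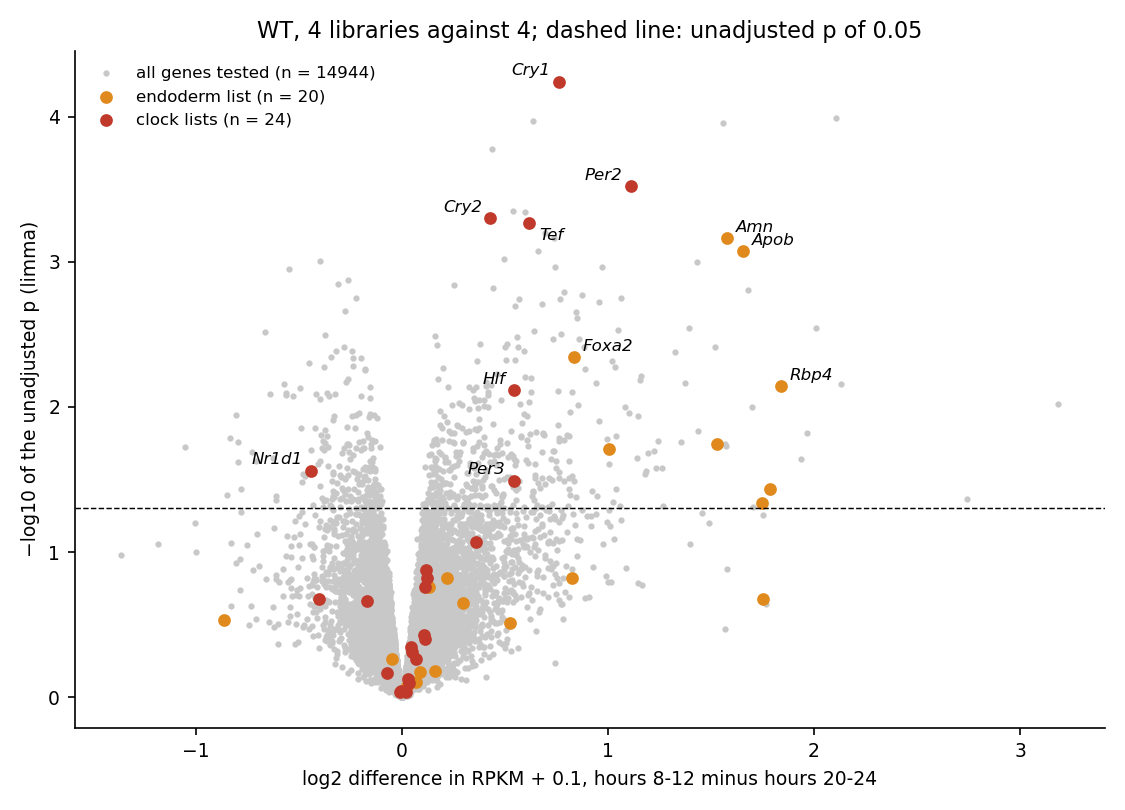
Log2 difference (hours 8-12 minus hours 20-24, horizontal axis) against -log10 of the unadjusted limma p (vertical axis) for the 14944 genes tested, with the 24 clock genes in red and 20 endoderm genes in orange. Cry1 is the highest point of all, at a difference of 0.76, and Nr1d1 (-0.44) is the one red point above the dashed line on the left.

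The second day repeated the direction of the first for most clock genes, at a smaller size. On the first day, with 2 libraries against 2, Per2 differed by 1.54 and on the second by 0.68 on the log2 scale, Cry1 by 0.97 and 0.56, and Hlf by 0.90 and 0.19. All 5 genes whose sides were apart had the larger difference on the first day. Of the 24 clock genes, 19 had the same sign on both days, against 51.78% of all genes. For the 5 with sides apart the same sign was fixed in advance, because the libraries of each day are part of the separated sides. Nr1d1 gave -0.48 and -0.40. Over the 11854 genes with a mean of at least 1 RPKM, the differences of the 2 days, which share no library, had a Pearson r of 0.18 across genes, which are not independent replicates.

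**Figure D3:**
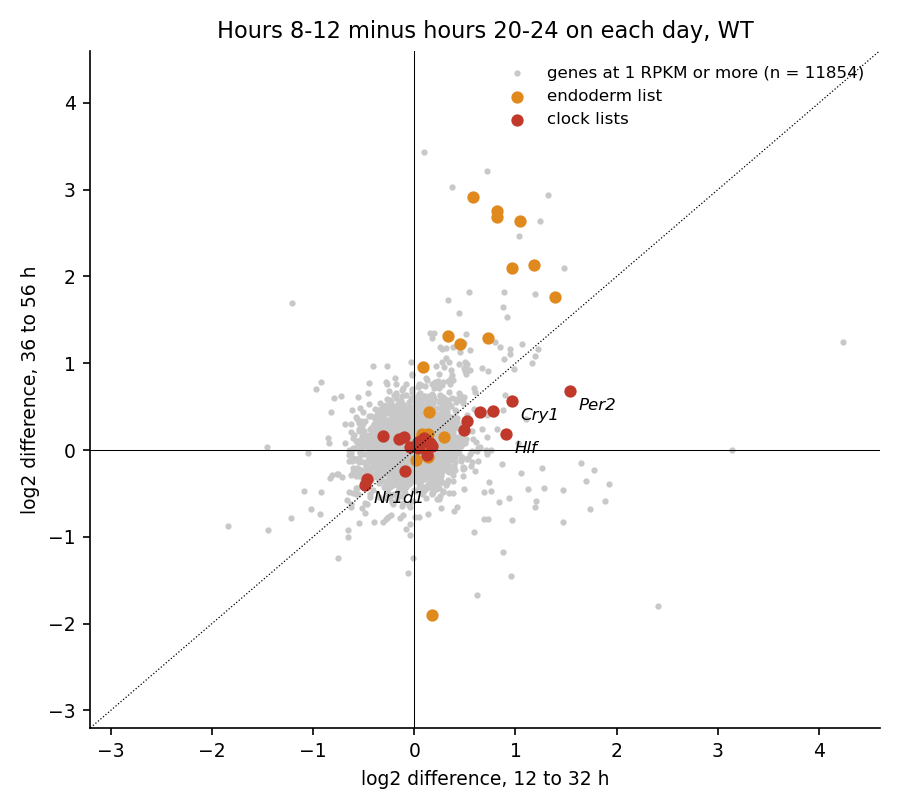
Log2 difference between hours 8-12 and hours 20-24 from the first-day libraries (horizontal axis) and from the second-day libraries (vertical axis) for genes at 1 RPKM or more, with the clock genes in red and the endoderm list in orange; the dotted line marks equal values and 1 gene lies outside the axes. Per2 lies under the dotted line at 1.54 and 0.68, as do Cry1, Cry2, Tef and Hlf, while Nr1d1 (-0.48 and -0.40) and most orange points at the upper right lie above it.

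In the KO cells the same contrast, with 4 libraries against 4 at the same times, was computed to see where WT differed from it. The deposited values cover whole genes, so they do not show the deleted exons, and Nr1d1 was still between 2.48 and 9.74 RPKM and Nr1d2 between 1.38 and 5.27 RPKM in the KO libraries. Of the 5 clock genes, 4 were also apart in KO (1.02% of all genes were), with log2 differences of 1.17 for Per2, 0.77 for Cry1, 0.61 for Tef and 0.85 for Hlf. Cry2 overlapped in KO, at 0.22 against 0.43 in WT. The test of the difference between genotypes called 1 of 15112 genes (0.00662%) at an adjusted p under 0.05, and it was no clock gene. That call was lost in 13 of 16 fits that left out 1 library and with time point as a replicate block, both at 0 genes. An unadjusted p under 0.05 was reached by 3.6% of the genes. For Cry1 the KO minus WT difference was 0.01 with an interval from -0.33 to 0.35, for Per2 0.06 with an interval from -0.51 to 0.64, and for Cry2 -0.20 with an interval from -0.48 to 0.07. For Nr1d2 it was 0.54 with an interval from -0.50 to 1.58, and for Npas2 0.24 with an interval from -0.10 to 0.58. In this joint model the spread of Nr1d1 was larger, and its WT difference of -0.44 had an interval that included 0. Among the 24 clock genes 0 had an unadjusted p under 0.05 in this test.

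**Figure D4:**
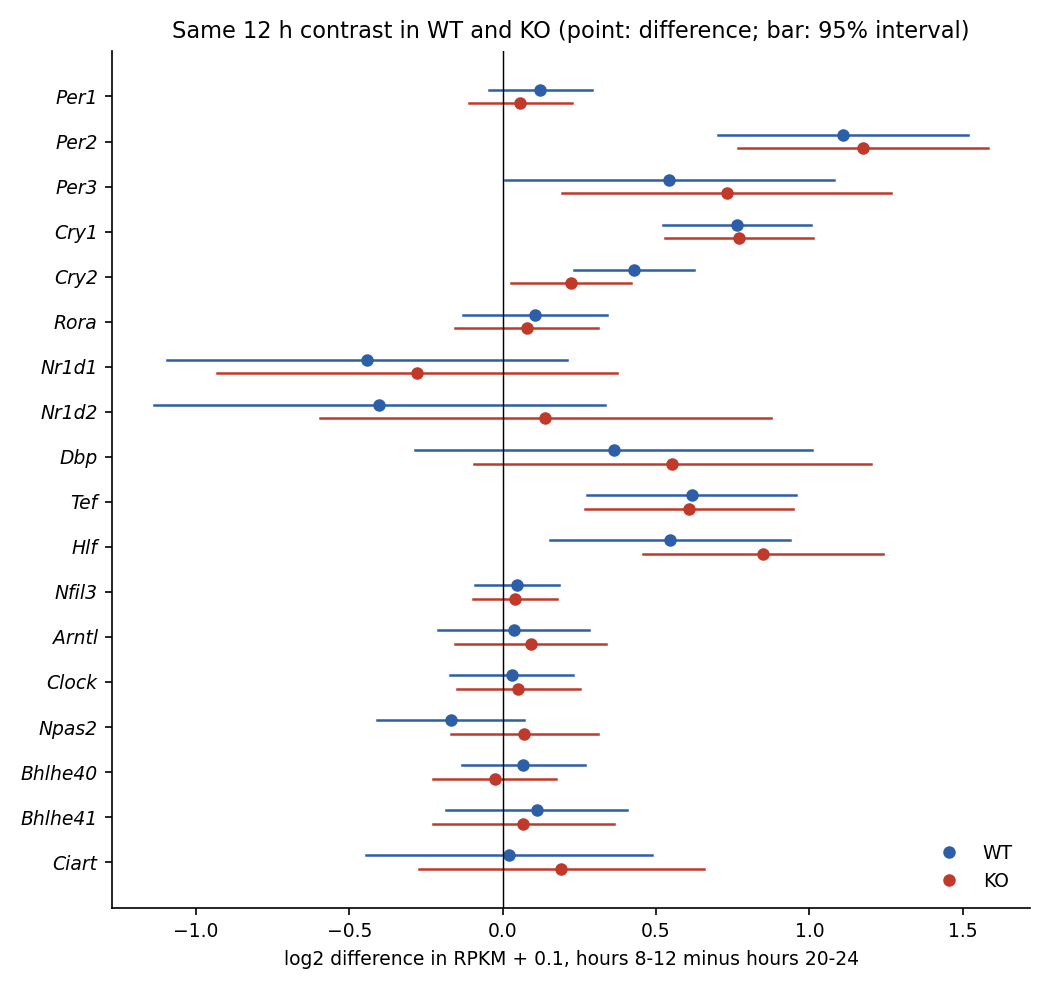
Log2 difference (hours 8-12 minus hours 20-24, horizontal axis) of 18 clock genes in WT (blue) and KO (red); points are differences of 4 libraries against 4 and bars are 95% intervals from 1 limma model over 16 libraries. The bars of both genotypes overlap for every gene shown, and those of Per2, Cry1, Cry2, Tef and Hlf lie above 0 in both.

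Outside the clock, the genes of smallest p on the higher side had varied known roles. Podxl, a sialomucin of kidney podocytes and of early embryonic epithelia, was 12.9, 12.2, 12.7 and 15.2 RPKM at 12, 32, 36 and 56 h and 9.28, 7.30, 7.82 and 9.58 RPKM at 20, 24, 44 and 48 h, a log2 difference of 0.64 ± 0.10 (SE; limma adjusted p = 0.409). Podxl was highest of all 12 WT libraries at 16 h (15.6 RPKM) and was 9.58 RPKM at 40 h, the same hour of the cycle. Ctsh, a lysosomal cysteine protease, differed by 0.44 ± 0.07 and Amot, a scaffold protein that binds YAP, by 0.54 ± 0.10 (SE). Both had all 4 libraries of hours 8-12 above the others. Slc16a1, the monocarboxylate transporter MCT1, led the list of clock outputs known from many organs. It was the single member of 19 with an unadjusted p under 0.05 (4.11% of all genes). It held 11.2 to 16.6 RPKM at hours 8-12 and 7.61 to 9.79 RPKM at hours 20-24, a log2 difference of 0.55 ± 0.13 (SE; 95% interval 0.26 to 0.84). In this list all 4 libraries of hours 8-12 lay above the others in 1 gene, Slc16a1 (1.65% of all genes). They lay below in 1, Rgs3 (-0.16, against 0.923% of all genes).

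Genes at very low levels were also among the 12 with the smallest p. En2, a homeobox gene of the midbrain and hindbrain, was 0.155, 0.391, 0.689 and 0.618 RPKM at 12, 32, 36 and 56 h and at or under 0.0303 RPKM in the other 4 libraries, on a mean of 14.6 fragments per library. Its log2 difference of 2.10 ± 0.33 (SE) therefore rests on few reads. The expression threshold was applied to the mean of the 12 WT libraries, and En2 passed it only through hours 8-12. In every other WT library it was at or under 0.0324 RPKM, so its direction is in part built in by the threshold. Mit1/Lb9, a transcript at chr6:30804784-30807552, had 17.7 fragments on average and a log2 difference of 1.56 ± 0.25 (SE). It likewise passed the threshold through hours 8-12, with means of 0.0631 to 0.186 RPKM at the other hours of the cycle. Lhx1, a homeobox gene of embryonic mesoderm and kidney, differed by 0.69 at 38.9 fragments, and Proz, encoding the plasma protein Z, by 0.74 at 12.8 fragments. Proz was highest of the 12 WT libraries at 16 h (0.634 RPKM).

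On the lower side the differences were smaller. Sln, encoding the calcium pump regulator sarcolipin, was 3.63, 4.06, 4.06 and 4.74 RPKM at 12, 32, 36 and 56 h and 5.38, 5.32, 5.19 and 5.90 RPKM at 20, 24, 44 and 48 h, a log2 difference of -0.40 ± 0.09 (SE; limma adjusted p = 0.795). The sides were apart, the nearest libraries being those of 56 and 44 h. Gstm2, a glutathione transferase, had 22.5 to 27.7 RPKM at hours 8-12 and 28.3 to 30.7 RPKM at hours 20-24, and Ces2g, a carboxylesterase, 15.3 to 16.5 RPKM and 17.8 to 20.9 RPKM. Syt8 (-0.55), Gstk1 (-0.42), Sirt3 (-0.28), which encodes the mitochondrial deacetylase, Dapk2 (-0.32) and Stc1 (-0.24) were likewise apart. Among the 12 genes with the smallest p on this side, only Htra3 (-0.37) had overlapping libraries.

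The list of endoderm genes, which includes secreted proteins of yolk sac and liver, had a median log2 difference of 0.67 against 0.01 for all genes. Of its 21 genes, 20 were found by symbol, and all of these were expressed. An unadjusted p under 0.05 was reached by 8 on the higher side (2.72% of all genes) and 0 on the lower (1.39%). The sides were apart in 3, namely Amn, Apob and Foxa2, each with hours 8-12 above (1.65% of all genes). Apob, the lipoprotein scaffold, was 2.66, 4.26, 5.21 and 3.97 RPKM at 12, 32, 36 and 56 h and 2.00, 1.02, 0.544 and 1.65 RPKM at 20, 24, 44 and 48 h, a log2 difference of 1.66 ± 0.35 (SE; limma adjusted p = 0.795). Foxa2, a pioneer factor of endoderm, had 1.12 to 2.23 RPKM against 0.526 to 0.882 RPKM.

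The remaining WT libraries extended the range of these genes. Apob was highest of all 12 WT libraries at 16 h (7.84 RPKM) and was 0.975 RPKM at 40 h, the same hour of the cycle on the next day. Afp, the fetal plasma protein of yolk sac and liver, was 727 RPKM at 16 h and 20.8 RPKM at 40 h. Over the list, the summed level was 674 to 1535 RPKM at hours 8-12 and 610.1 to 892 RPKM at hours 20-24, and it reached 1759 RPKM at 16 h. Alb, in the same list, had a mean log2 difference of -0.86 (interval -2.62 to 0.89). In KO, Apob differed by -0.18 (interval -1.55 to 1.19), and the difference between genotypes was -1.84 with an interval from -3.78 to 0.10. For Foxa2 it was -0.72 with an interval from -1.40 to -0.05 (limma adjusted p = 1). In pooled embryoid bodies, fewer cells of a type and less RNA per cell cannot be told apart.

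Neuron markers and genes of dividing cells also had positive medians. Of the 12 neuron markers, 11 were expressed, with a median log2 difference of 0.84, and 4 had an unadjusted p under 0.05 on the higher side (2.72% of all genes). Stmn2, a tubulin-binding protein of neurons, was 2.59, 2.36, 6.73 and 3.11 RPKM at 12, 32, 36 and 56 h and 1.62, 1.78, 3.20 and 0.948 RPKM at 20, 24, 44 and 48 h. The summed neuron level was 17.9 to 50.2 RPKM at hours 8-12 and 6.82 to 34.0 RPKM at hours 20-24, while the 4 libraries at hours 4 and 16 held 6.18 to 7.80 RPKM. All 22 genes of G2 and M phase had a positive difference (median 0.55), and 3 had an unadjusted p under 0.05 (2.72% of all genes on that side). The median over all genes was 0.01. These 22 genes share the same libraries, so they are not 22 separate observations. Their summed level was 54.1, 31.6, 30.3 and 51.9 RPKM at 12, 32, 36 and 56 h and 53.5, 21.7, 19.9 and 24.8 RPKM at 20, 24, 44 and 48 h, so that the 20 h library lay with the highest of hours 8-12.

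Heart and striated muscle markers were mostly lower at hours 8-12. Of 12 markers 10 were expressed, 9 of them had a negative difference, and the median was -0.28. An unadjusted p under 0.05 was reached by 1 on the lower side (1.39% of all genes). Their summed level overlapped, with 52.0 to 89.2 RPKM at hours 8-12 and 82.7 to 93.3 RPKM at hours 20-24. Positive differences were also few among smooth muscle (0 of 8), macrophage (1 of 10) and fibroblast markers (1 of 8). Tnnt2, cardiac troponin T, had 35.3, 45.3, 39.4 and 38.9 RPKM at 12, 32, 36 and 56 h and 55.8, 55.4, 47.3 and 41.8 RPKM at 20, 24, 44 and 48 h, a log2 difference of -0.33 ± 0.11 (SE; exact permutation p = 0.0571). The part of these cell type differences in the genes described above was not tested.

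**Figure D5:**
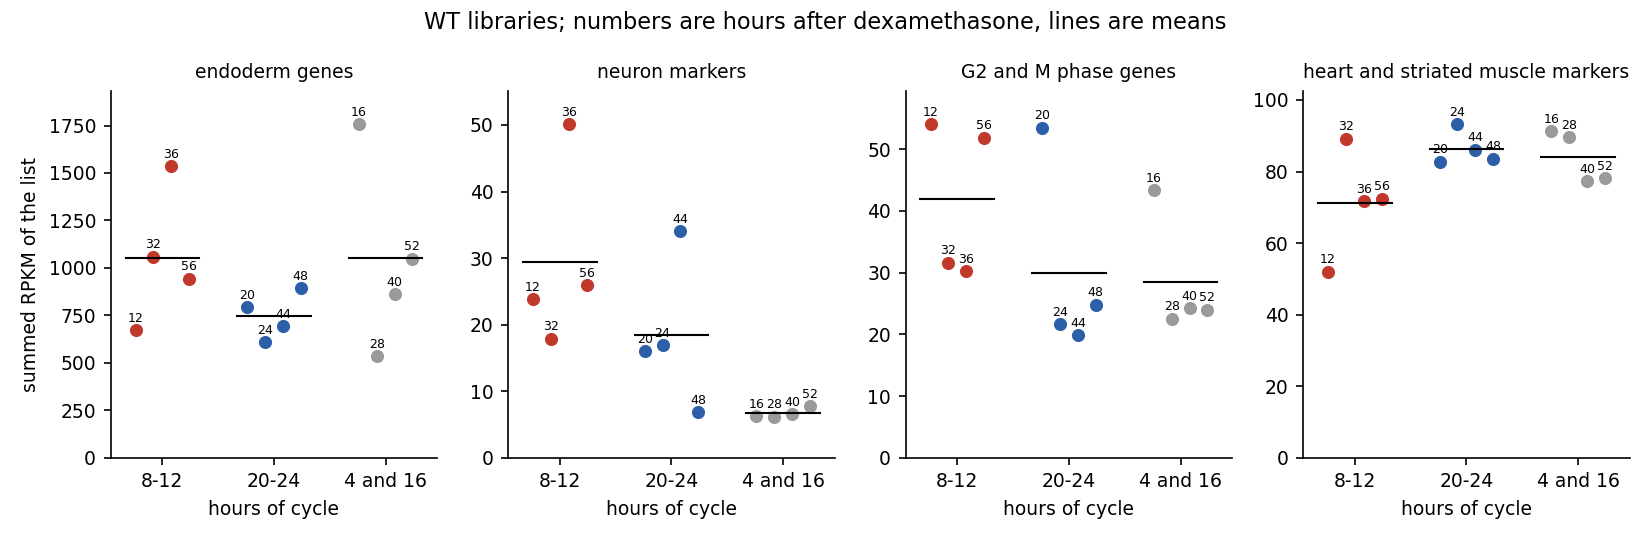
Summed RPKM (vertical axes, from 0) of 4 gene lists in the 12 WT libraries by hours of the cycle; points are libraries labelled by hours after dexamethasone and black lines are means of 4. The endoderm sum is highest at 16 h (1759 RPKM), outside both sides, the neuron sum at 36 h (50.2 RPKM), and the G2 and M phase sum of the 20 h library (53.5 RPKM) lies with those of 12 and 56 h.

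Lists of systemic and stress signals were close to the median of all genes. Over all genes, an unadjusted p under 0.05 was reached by 2.72% on the higher side and 1.39% on the lower. Glucocorticoid-induced genes had a median log2 difference of 0.03, with 0 of 21 on the higher and 1 of 21 on the lower side at an unadjusted p under 0.05. That gene was Gadd45b (-0.18), a stress-induced growth regulator. Immediate early genes (median 0.01), heat shock genes (0.02) and cold-induced genes (0.01) had 0 members with such a p. The stress list of unfolded proteins and amino acids (median -0.04) had 1, Psat1, a serine synthesis enzyme (0.35). Cholesterol synthesis (0.07) had 1, the regulator Srebf2, at 15.9 to 16.8 RPKM against 14.2 to 15.9 RPKM. Fatty acid synthesis (0.02) and hypoxia and glycolysis (0.05) had 0.

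Among the remaining lists, S phase genes had 19 of 20 positive differences and a median of 0.20. They share the same libraries and are not separate observations, and their summed level was highest in the 20 h library (102 RPKM). Of their members, 0 had an unadjusted p under 0.05, which 4.11% of all genes reached. The retinoic acid list had 2 of 15, Rbp4, the retinol carrier (1.84 ± 0.54, SE), and Cyp26a1, the enzyme that degrades retinoic acid (1.70 ± 0.53, SE). In both the 20 h library was high, at 15 and 1.04 RPKM, beside 1.89 to 5.03 and 0.0590 to 0.236 RPKM at 24, 44 and 48 h. Epithelial markers had 1 of 10, the embryonic claudin Cldn6 (1.14). Collagens and matrix (median -0.03), TGF-beta, YAP and SRF responsive genes (0.03), smooth muscle (-0.10), endothelial (0.08), macrophage (-0.09), trophoblast (0.05), fibroblast (-0.05), glial (0.23) and pluripotent markers (0.74, on 3 genes) had 0. Of 8 erythroid markers, 7 were found by symbol and 0 were expressed above the threshold. The alpha globin gene Hba-a2, which was not in that list, was 19.4 RPKM in the 32 h library and at most 0.324 RPKM in the other 7, 2 of which were at 0. It passed the expression threshold only through the 32 h library. Hba-a2 has a near-identical copy, Hba-a1, and how reads were divided between them is uncertain.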

How the data were processed

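RNA-seq was analysed in 8 WT libraries, with the 4 other WT and 12 KO libraries for comparison. Per the labels and methods, the authors trimmed 101-bp paired reads (Trimmomatic 0.36), mapped them to GRCm38/mm10 (STAR 2.5.4b), removed mapping qualities under 10, counted reads on exons of UCSC canonical genes with HOMER and deposited RPKM for 33079 genes. The deposited values were normalized to library totals, so no count test was used; RPKM multiplied by length and total gave fragments, from which depth is described.

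The test, for genes averaging over 0.5 RPM in WT, was limma 3.58.1 (R 4.3.3; lmFit, eBayes with trend) on log2(RPKM + 0.1), 4 libraries against 4, with Benjamini-Hochberg adjustment. A genotype-by-side term over 16 libraries tested WT against KO. Fold changes on this scale understate changes of low genes. The limma script was tested on simulated data. The alternatives are given at the end. Promoter sequences were scanned on both strands in Python 3.11.15.

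The members and lists (32 lists, 389 genes, 2 not found by symbol) were chosen with earlier results of these data known. Named genes were all clock genes, the 12 of smallest p per side, the 6 of largest fold per side among genes with sides apart and at least 1 RPKM, and up to 3 of smallest p per other list. Some genes are not reported here. WT and KO libraries of the same hour had deviations correlated at -0.15 to 0.21, so time points were not treated as pairs.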

Additional observations from a re-analysis of the deposited data

Results flagged for a closer look

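Of 246 groups of 4 libraries examined in the named genes, 23 had a library that stood apart from the other 3 by Dixon's criterion (the gap to the nearest library over the range of the group), where chance gives about 1 in 20. Of these, 8 were in the 20 h library and 5 in the 56 h library.

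The 20 h library stood apart from 24, 44 and 48 h for Gsk3b (4.98 RPKM), Mit1/Lb9 (0.262), Ctsh (9.20), Dhcr7 (4.80), Mki67 (1.61), Cdk1 (3.01), L1td1 (0.895) and Pou5f1 (4.73 RPKM), Pou5f1 encoding the pluripotency factor OCT4. Gsk3b was low there and the other 7 were high. The 56 h library stood apart from the rest of hours 8-12 for Nr1d1 (5.19 RPKM), Mit1/Lb9 (0.390), Gstm2 (27.7), Stc1 (5.72) and Foxa2 (2.23 RPKM), being low for Mit1/Lb9 and Stc1 and high for the other 3.

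The 44 h library stood apart for Dcn (632 RPKM), Cnn1 (1.45) and Acta1 (3.45 RPKM), the 24 h library for Pdk1 (5.12) and Eng (3.97 RPKM), and the 48 h library for Esrrb (0.227 RPKM). Among hours 8-12, the 12 h library stood apart for Tspan4 (74.3 RPKM), the 36 h library for the neuron genes Elavl3 (2.24) and Stmn2 (6.73 RPKM), and the 32 h library for Hba-a2 (19.4 RPKM).

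Mit1/Lb9 was the 1 gene called in the test between genotypes, a call lost in 13 of 16 fits that left out 1 library (smallest adjusted p from 0.0898 to 0.156) and with time point as a replicate block. It was 0.668, 0.681, 0.682 and 0.390 RPKM at 12, 32, 36 and 56 h and 0.262, 0.113, 0.111 and 0.0859 RPKM at 20, 24, 44 and 48 h in WT, and its KO libraries lay the other way, with means of 0.128 and 0.293 RPKM. The KO minus WT log2 difference was -2.32 ± 0.32 (SE; limma adjusted p = 0.0382). At 17.7 fragments per library it is near the lower limit of what was tested.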

How the results depend on the processing

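The count of genes higher at hours 8-12 was 0 and became 1 when every gene above 0 was tested (Mir1231) and 1 with a 24 h cosine over the 12 WT libraries (Cry1, adjusted p = 0.0246). Leaving out 1 library gave 0 to 9. Without the 12 h library it was 1 (En2), and without the 20 h library it was 9 (Apom, Sfrp5, Lin28a, Fgf5, Mcm7, Mit1/Lb9, Fxyd2, Irs4 and Ctsh, each at adjusted p = 0.0484); the causes were not tested. The count of genes lower was 0 throughout, and collection day as a replicate block gave 0 and 0 (smallest adjusted p = 0.545). The difference between genotypes was called in 1 gene, in 0 at a mean of at least 1 RPKM, where Mit1/Lb9 is not among the genes tested, and in 0 with time point as a replicate block. Leaving out 1 library gave 0 to 2. It was 0 in 13 of 16 cases (smallest adjusted p from 0.0898 to 0.156), 1 without the WT 56 h or the KO 24 h library and 2 without the WT 20 h library. Of the values of named genes under the alternatives, 2166 kept direction and side of the threshold, 4 passed it (Cry1, En2, Mit1/Lb9 and Ctsh, as above) and 23, in 11 genes near 0, changed sign without passing it. The 5 clock genes with sides apart kept their sign in all 18 alternatives. For most of these alternatives, such as leaving out 1 library, sides that do not overlap fix the sign in advance. With 4 libraries a side, single time points and few fragments in low genes, small differences were not detectable.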
